A study of Homo sapiens with 9 samples.

Results

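A set of 10 genes that encode secreted mediators of inflammation was followed in CAL-27 cells, an established cell line of oral squamous carcinoma that comes from the tongue. These are the chemokines CXCL1, CXCL2, CXCL3, CXCL8 and CCL20, the interleukins IL1A, IL1B, IL36G and IL6, and the growth factor CSF2. The genes were chosen by name, and all 10 were found among the 33216 genes listed in each of the 9 libraries. Cells were transfected for 48 h with siRNA against the transcription factor LEF1 (siLEF1), with siRNA against the histone demethylase KDM4A (siKDM4A), or as Control, with 3 libraries in each group. The labels do not say what the Control cells received. All groups are the same cancer cell line grown in culture. The paper lists more than 1 siRNA against each target. Which of them went into these libraries, alone or pooled, is not given in the sources used here. The study describes the samples as independent, and the labels do not say whether they were separate cultures, so p-values measure the spread between these libraries.

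Chemokines are small secreted proteins that guide leukocytes along a gradient. CXCL1, CXCL2, CXCL3 and CXCL8 share a receptor, CXCR2, and attract neutrophils, whereas CCL20 attracts CCR6-bearing lymphocytes and dendritic cells. IL-1 alpha and IL-1 beta bind the same receptor, IL1R1, and act through the kinases and adaptors that release NF-kB, a family of transcription factors under which many cytokine genes stand. IL-36 gamma is an epithelial relative of IL-1. IL-6 signals through IL6R and IL6ST to STAT3, and CSF2 (GM-CSF) promotes the growth and activation of myeloid cells. Squamous carcinoma cells are known to produce many of these factors themselves.

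Expression was measured as FPKM, that is, fragments counted on a gene and scaled both to its length and to library size, so that levels of different genes can be compared per length. Libraries held 15263188 to 17126664 reads on genes. LEF1, the first target, stood at 1.19, 0.997 and 1.27 FPKM in Control, at 0.271, 0.246 and 0.230 FPKM in siLEF1 and at 0.898, 0.937 and 0.806 FPKM in siKDM4A. KDM4A stood at 16.5 to 16.7 FPKM in Control, at 13.8 to 14.3 FPKM in siLEF1 and at 2.76 to 2.78 FPKM in siKDM4A. Each target was thus lowest in the libraries that carry its name.

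The genes of 4 chemokines lie in 1 cluster on chromosome 4, and those of 3 interleukins lie in another on chromosome 2. In GENCODE release 29 (GRCh38), CXCL8 occupies chr4:73740506-73743716 and CXCL1 chr4:73869393-73871242, both on the plus strand. CXCL3 (chr4:74036589-74038807) and CXCL2 (chr4:74097035-74099293) lie beyond them on the minus strand. The IL-1 family genes are IL1A (chr2:112773915-112784590, minus), IL1B (chr2:112829751-112836903, minus) and IL36G (chr2:112973203-112985665, plus). CCL20 (chr2:227805739-227817564), IL6 (chr7:22725884-22732002) and CSF2 (chr5:132073790-132076170) lie apart from these clusters, all on the plus strand. All 10 are annotated as protein coding.

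The stretches just before the transcription starts are shown because the nearest relatives among the chemokines, CXCL1, CXCL2 and CXCL3, are much alike there and yet differed in their response. Each line gives 100 bases, from base -110 to base -11 relative to the RefSeq start (GRCh38.p14), read 5′ to 3′ on the strand of the gene. Capitals mark matches to an NF-kB motif, GGNNNTTCC, on either strand. The RefSeq starts are not always the ends of the GENCODE spans given above. The windows of CXCL3, CCL20 and IL6 lie within those spans, and those of CXCL2 and CXCL8 lie partly within them. The windows are CXCL1 at chr4:73869283-73869382 (plus), CXCL2 at chr4:74099206-74099305 (minus), CXCL3 at chr4:74038700-74038799 (minus), CXCL8 at chr4:73740459-73740558 (plus), CCL20 at chr2:227813732-227813831 (plus), IL6 at chr7:22727090-22727189 (plus) and CSF2 at chr5:132073679-132073778 (plus).
CXCL1: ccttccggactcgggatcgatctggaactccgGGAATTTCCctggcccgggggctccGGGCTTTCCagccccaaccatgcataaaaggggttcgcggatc
CXCL2: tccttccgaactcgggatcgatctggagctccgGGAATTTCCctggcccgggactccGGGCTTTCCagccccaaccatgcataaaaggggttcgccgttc
CXCL3: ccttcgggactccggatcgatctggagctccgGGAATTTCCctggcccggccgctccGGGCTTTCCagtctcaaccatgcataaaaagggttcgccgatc
CXCL8: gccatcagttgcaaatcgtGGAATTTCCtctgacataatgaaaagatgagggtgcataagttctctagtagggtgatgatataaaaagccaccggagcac
CCL20: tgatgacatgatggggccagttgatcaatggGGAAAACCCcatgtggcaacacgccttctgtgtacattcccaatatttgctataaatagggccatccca
IL6: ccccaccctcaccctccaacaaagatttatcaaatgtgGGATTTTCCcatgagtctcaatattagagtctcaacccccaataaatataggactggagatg
CSF2: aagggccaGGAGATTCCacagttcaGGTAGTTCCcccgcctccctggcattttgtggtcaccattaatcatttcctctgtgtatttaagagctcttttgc

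After pairwise alignment, CXCL1 shared 94% of these 100 bases with CXCL2 and 91% with CXCL3, and CXCL2 shared 90% with CXCL3. CXCL8 shared 47% to 49% with each of them. Over the longer windows of 300 bases described below, the shared bases were 74% for CXCL1 and CXCL2, 84.7% for CXCL1 and CXCL3 and 78% for CXCL2 and CXCL3. The first motif began at base -78 in CXCL1 and CXCL3, at base -77 in CXCL2, at base -91 in CXCL8, at base -72 in IL6 and at base -102 in CSF2. In CCL20 it was read from the opposite strand and covered bases -79 to -71. CXCL1, CXCL2 and CXCL3 each held another match at base -53, and CSF2 held another at base -85. Over windows of 300 bases, from 250 before to 50 after the start, the motif was present in 7 of the 10 genes and in 20.1% of 35116 RefSeq windows. IL1A, IL1B and IL36G had no match in this window. An AP-1 motif, TGANTCA, was found in CXCL8 and IL1A and in 7.71% of all windows. The letters CTTTGA, the core that TCF and LEF factors recognise, were found in CXCL8 alone among the 10 and in 12.9% of all windows. A match is a run of letters and was not measured as a bound site.

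In Control cells IL1A had the highest level of the 10, at 66.9 ± 3.0 FPKM (SD, n = 3 for this and the following levels). It was followed by CSF2 at 43.9 ± 3.4, IL1B at 42.7 ± 0.97, CXCL1 at 34.6 ± 1.1 and CXCL8 at 30.1 ± 1.5 FPKM. CXCL2 (15.8 ± 1.3), CCL20 (11.2 ± 1.6), IL6 (8.06 ± 0.47) and CXCL3 (2.81 ± 0.34 FPKM) were lower, and IL36G was barely detected at 0.484 ± 0.27 FPKM. Of the neighbours in this order, CSF2 and IL1B overlapped between libraries, and the others did not. In siLEF1 the order began with IL1B (58.1 ± 3.1) and IL1A (54.8 ± 2.2 FPKM), whose libraries overlapped, and IL6 stood beside CXCL2. In siKDM4A it began with CXCL1 (144 ± 11), CSF2 (93.5 ± 0.45) and CXCL8 (72.9 ± 3.3 FPKM), and no neighbours overlapped. The leading gene of the set was therefore an interleukin in Control and siLEF1 cells and a chemokine in siKDM4A cells.

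**Figure D1:**
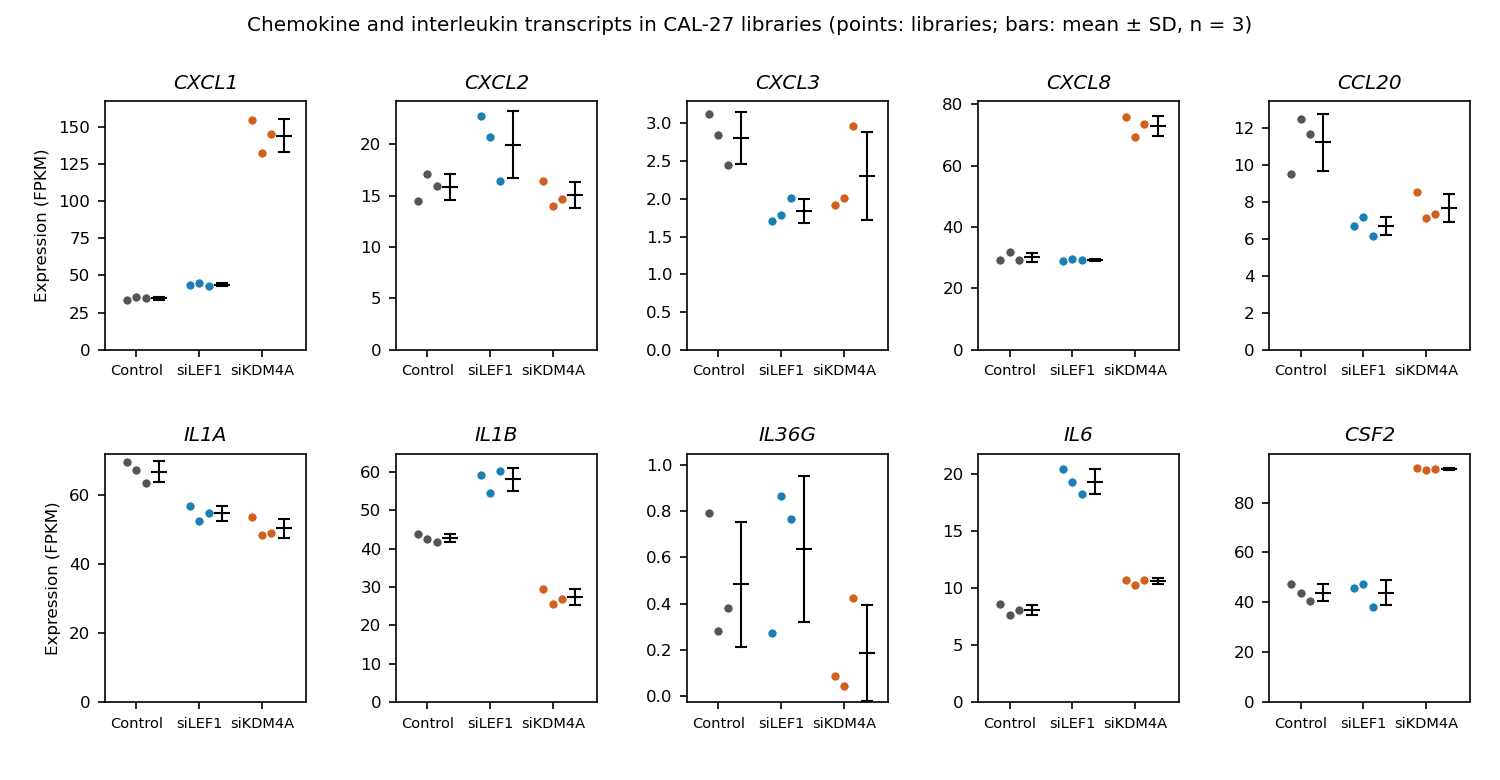
Expression of the 10 genes in FPKM (vertical axis, linear, a separate scale for each gene) in the Control, siLEF1 and siKDM4A groups; points are single libraries, and the bar beside them gives the mean ± SD (n = 3). CXCL1, CXCL8 and CSF2 were highest in siKDM4A, IL6 was highest in siLEF1, and IL1B was highest in siLEF1 and lowest in siKDM4A.

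Each knockdown was compared with Control, and the knockdowns were compared with each other, by limma on log2(FPKM + 0.1). A gene was called raised or lowered when its Benjamini-Hochberg adjusted p over all genes tested was below 0.05 and its fold change exceeded 1.5. Fold changes below are on this scale, which understates the change of a low gene. The comparisons with Control share the same 3 Control libraries.

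With siLEF1, 1 of the 10 genes rose (IL6) and 2 fell (CXCL3 and CCL20). Across all 21831 genes tested, 11.6% were called, 6.31% as raised and 5.31% as lowered. With siKDM4A, 3 genes rose (CXCL1, CXCL8 and CSF2) and 1 fell (IL1B), against 12% of 21253 genes, 4.23% raised and 7.8% lowered. Between the knockdowns, CXCL1, CXCL8 and CSF2 were higher and IL1B and IL6 lower in siKDM4A, against 15.3% of 21493 genes, 5.28% higher and 10% lower. The median log2 fold change of the 10 genes was 0.15 with siLEF1, -0.18 with siKDM4A and 0.04 between the knockdowns, and that of all genes tested was -0.01, -0.05 and -0.06. The set did not move as a block in any comparison, and its members were called in opposite directions in all 3.

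Libraries that did not overlap between the groups were common among all genes and are given for scale. This was so for 6 of the 10 genes with siLEF1 (46.3% of all genes tested), for 7 with siKDM4A (47.1%) and for 5 between the knockdowns (49.6%). The adjusted p alone was below 0.05 for 6 of the 10 genes with siLEF1 (32.5% of all genes tested), for 7 with siKDM4A (33.1%) and for 6 between the knockdowns (36.9%). Members that passed the adjusted p but stayed below 1.5-fold are given by their values and not as changed.

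**Figure D2:**
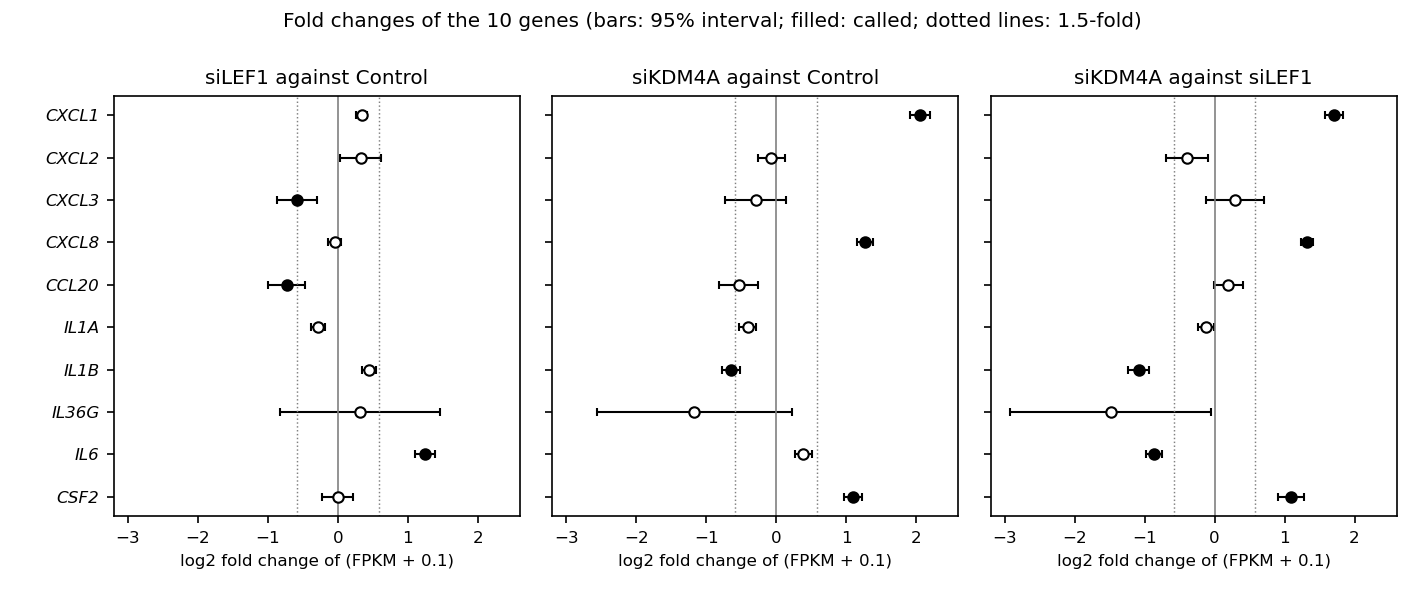
Log2 fold changes of (FPKM + 0.1) for the 10 genes (horizontal axis) in the 3 comparisons, with bars for the 95% interval from limma and filled points for called genes; dotted lines mark a 1.5-fold change. CXCL1 (2.06), CXCL8 (1.27) and CSF2 (1.09) lie to the right in siKDM4A against Control, IL6 (1.25) lies to the right in siLEF1 against Control, and the interval of IL36G is the widest in each panel.

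Of the neutrophil-attracting chemokines, CXCL1 showed the largest response. Its level was 33.4, 35.5 and 35.03 FPKM in Control, 43.7, 44.8 and 43.1 FPKM in siLEF1 and 155, 133 and 146 FPKM in siKDM4A. All siKDM4A libraries lay far above the others, and the siLEF1 libraries lay in a narrow band just above Control. CXCL1 rose with siKDM4A by 2.06 ± 0.06 (log2, SE), a 4.15-fold change (limma, adjusted p = 3.9e-06). With siLEF1 the difference was 0.34 ± 0.03 (adjusted p = 0.00032), a 1.27-fold change that stayed below the fold threshold. CXCL1 was 3.28-fold higher in siKDM4A than in siLEF1 (adjusted p = 3.8e-06).

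CXCL8, also known as interleukin 8, had 29.2, 31.8 and 29.3 FPKM in Control, 29.03, 29.5 and 29.1 FPKM in siLEF1 and 75.8, 69.3 and 73.7 FPKM in siKDM4A. Control and siLEF1 overlapped, and siKDM4A stood apart from both. The rise with siKDM4A was 1.27 ± 0.05 (log2, SE), or 2.42-fold (limma, adjusted p = 1.1e-05). With siLEF1 the difference was -0.04, with a 95% interval of -0.14 to 0.05 (adjusted p = 0.44), which lies within 1.5-fold on both sides. Between the knockdowns CXCL8 was 2.49-fold higher in siKDM4A (adjusted p = 2.2e-06).

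CXCL2 and CXCL3, the closest relatives of CXCL1, were not called with siKDM4A. CXCL2 had 14.5, 17.1 and 15.9 FPKM in Control, 22.8, 20.7 and 16.4 FPKM in siLEF1 and 16.5, 14.01 and 14.7 FPKM in siKDM4A. Its difference with siKDM4A was -0.07 on the log2 scale, with a 95% interval of -0.27 to 0.12 (limma, adjusted p = 0.54). With siLEF1 it was 0.32 (interval 0.03 to 0.62, adjusted p = 0.095), where 1 siLEF1 library lay within the Control range. The intervals against Control of CXCL2 and of CXCL1 (1.92 to 2.19) with siKDM4A were thus far apart. Set directly against siLEF1, CXCL2 in siKDM4A differed by -0.40 (interval -0.69 to -0.10, adjusted p = 0.045). This was short of 1.5-fold, and the libraries of the knockdowns overlapped.

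CXCL3 was the least abundant of the CXCL chemokines, with 3.13, 2.84 and 2.45 FPKM in Control. The siLEF1 libraries had 1.71, 1.78 and 2.01 FPKM, and the siKDM4A libraries had 1.92, 2.02 and 2.97 FPKM. It fell by 0.59 ± 0.12 (log2, SE) with siLEF1 (limma, adjusted p = 0.0093), at the edge of the fold threshold, and 8 of 17 alternatives to this test did not call it. Leaving out Control replicate 1, Control replicate 2, siLEF1 replicate 1 or siLEF1 replicate 2 was enough to lose the call, with log2 values of -0.51, -0.57, -0.54 and -0.57. With siKDM4A the difference was -0.29 (interval -0.73 to 0.14, adjusted p = 0.27), and the libraries overlapped Control. These values rest on 60 to 113 reads a library.

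Because their transcripts resemble each other, reads of these genes can be hard to place. Of all stretches of 50 bases in the annotated transcripts, 4.81% in CXCL1, 12.5% in CXCL2 and 6.01% in CXCL3 also occurred in another of the 3, and none of those in the other 7 members did so. How reads with several positions were counted is not given in the sources used here, and the values of CXCL1, CXCL2 and CXCL3 are uncertain to that extent.

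Summed over CXCL1, CXCL2, CXCL3 and CXCL8, expression was 83.4 ± 3.6 FPKM in Control, 94.9 ± 3.7 in siLEF1 and 235 ± 15 FPKM in siKDM4A. The make-up of this sum also differed. CXCL1 supplied 41.5% ± 0.83 in Control, 46.3% ± 1.3 in siLEF1 and 61.5% ± 0.63 in siKDM4A. CXCL2 and CXCL3 together supplied 22.3% ± 0.46, 22.9% ± 2.5 and 7.39% ± 0.055 in the same order. The ratio of CXCL1 to CXCL2 was 2.19 ± 0.11 in Control, 2.24 ± 0.36 in siLEF1 and 9.60 ± 0.28 in siKDM4A. CXCL8 supplied 36.1% ± 0.58, 30.8% ± 1.2 and 31.1% ± 0.65. The libraries of siKDM4A had a larger sum and a larger share from CXCL1 than all others, and the shares from CXCL2 and CXCL3 overlapped between Control and siLEF1.

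**Figure D3:**
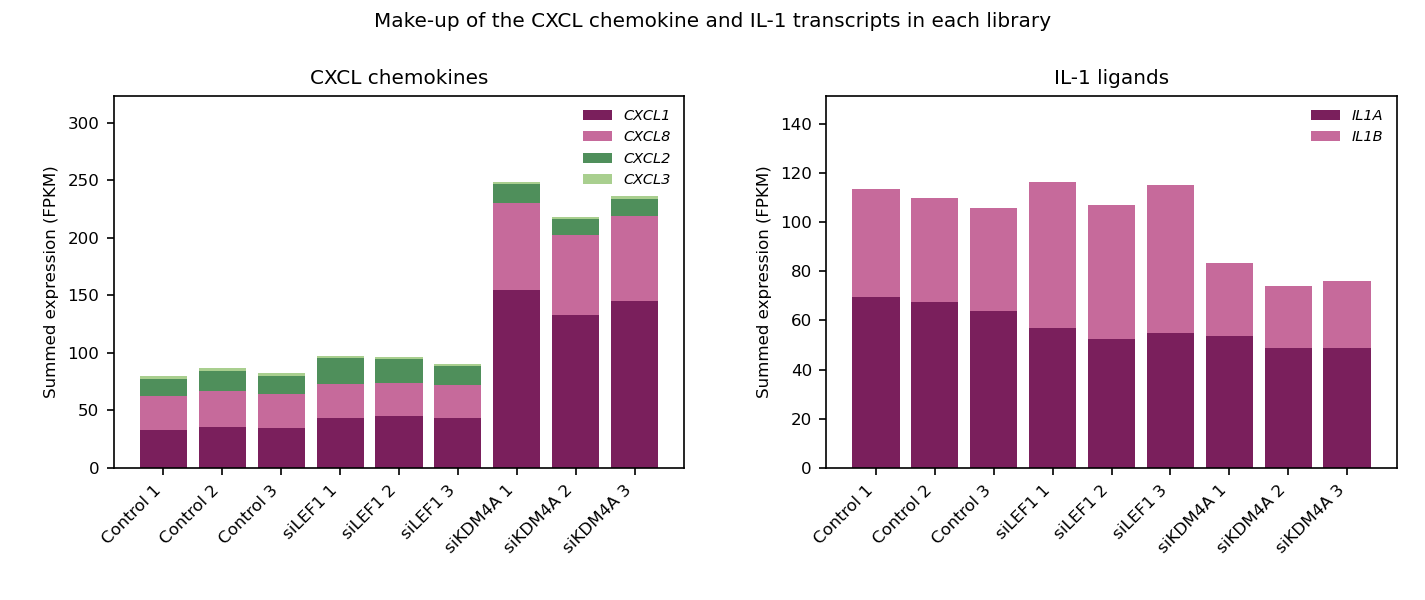
Summed FPKM (vertical axes, linear from 0) in each of the 9 libraries, stacked by gene, for CXCL1, CXCL8, CXCL2 and CXCL3 on the left and for IL1A and IL1B on the right. The CXCL sum was 80.2 to 97.2 FPKM in Control and siLEF1 and 218 to 249 FPKM in siKDM4A, and the IL-1 sum was 106 to 116 FPKM in Control and siLEF1 and 74.1 to 83.2 FPKM in siKDM4A.

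CCL20, the lymphocyte and dendritic cell attractant, had 9.47, 12.5 and 11.7 FPKM in Control. Its levels were 6.67, 7.15 and 6.16 FPKM in siLEF1 and 8.53, 7.12 and 7.30 FPKM in siKDM4A. Every knockdown library was below every Control library. The fall with siLEF1 was called, at -0.73 ± 0.11 (log2, SE; limma, adjusted p = 0.0024). With siKDM4A the difference was -0.54 ± 0.12 (adjusted p = 0.012), short of 1.5-fold, and it was called when Control replicate 1 (-0.65) or siKDM4A replicate 1 (-0.62) was left out. The knockdowns overlapped, with a difference of 0.20 between them (interval -0.01 to 0.40, adjusted p = 0.13).

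Of the ligands of the IL-1 receptor, IL1B fell with siKDM4A and IL1A was not called in any comparison. IL1B had 43.8, 42.6 and 41.8 FPKM in Control, 59.3, 54.6 and 60.3 FPKM in siLEF1 and 29.6, 25.5 and 27.0 FPKM in siKDM4A. The 3 groups did not overlap, with siLEF1 above and siKDM4A below Control. IL1B fell by 0.64 ± 0.06 (log2, SE) with siKDM4A (limma, adjusted p = 0.00022). With siLEF1 it differed from Control by 0.44 ± 0.04 (adjusted p = 0.00036), a 1.36-fold change that was not called. Set against siLEF1 directly, siKDM4A cells had 0.471 times the IL1B level (adjusted p = 3.4e-05).

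IL1A had 69.6, 67.3 and 63.7 FPKM in Control, 57.0, 52.5 and 54.9 FPKM in siLEF1 and 53.6, 48.6 and 49.0 FPKM in siKDM4A. Both knockdowns lay below Control in every library and overlapped each other. The differences were -0.29 ± 0.04 with siLEF1 (log2, SE; limma, adjusted p = 0.0026) and -0.41 ± 0.05 with siKDM4A (adjusted p = 0.001), and neither reached 1.5-fold. The ratio of IL1B to IL1A was therefore 0.639 ± 0.015 in Control, 1.06 ± 0.034 in siLEF1 and 0.542 ± 0.015 in siKDM4A. Their sum was 110 ± 3.9, 113 ± 5.0 and 77.7 ± 4.8 FPKM in the same order. In siLEF1 the sum overlapped Control while its balance lay towards IL1B, and in siKDM4A the sum itself was smaller.

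IL36G, which is made by epithelia, was near the limit of detection. The files hold 17, 6 and 8 reads in Control, 6, 19 and 18 reads in siLEF1 and 2, 1 and 10 reads in siKDM4A, that is, at most 0.865 FPKM. The groups overlapped and no comparison called it, with intervals of -0.83 to 1.46 (siLEF1) and -2.56 to 0.22 (siKDM4A) on the log2 scale. The interval with siLEF1 holds a 1.5-fold change in either direction, and that with siKDM4A holds a fall of this size. The lack of a call at this depth therefore does not show that IL36G was unchanged.

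IL6 was the member with the largest response to siLEF1. It had 8.54, 7.59 and 8.04 FPKM in Control, 20.4, 19.2 and 18.2 FPKM in siLEF1 and 10.7, 10.3 and 10.7 FPKM in siKDM4A. The 3 groups did not overlap, and siKDM4A lay between the others, nearer to Control. IL6 rose by 1.25 ± 0.06 (log2, SE) with siLEF1, a 2.38-fold change (limma, adjusted p = 2.1e-05). With siKDM4A the difference was 0.39 ± 0.05 (adjusted p = 0.0017), or 1.31-fold, and was not called. Between the knockdowns IL6 was 0.55 times as high in siKDM4A (adjusted p = 3.1e-05). An antisense gene, AC073072.1, overlaps IL6. It had a mean of 0.743 FPKM and was not called in any comparison, and whether strand was used in counting is not given in the sources used here.

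CSF2 had 47.3, 43.7 and 40.6 FPKM in Control, 45.8, 47.5 and 38.2 FPKM in siLEF1 and 93.9, 93.0 and 93.6 FPKM in siKDM4A. The siKDM4A libraries lay within 1 FPKM of each other and well above the rest. CSF2 rose with siKDM4A by 1.09 ± 0.05 (log2, SE), or 2.13-fold (limma, adjusted p = 2.5e-05). With siLEF1 the difference was -0.01, with an interval of -0.23 to 0.22 (adjusted p = 0.98), which again lies within 1.5-fold. Between the knockdowns CSF2 was 2.14-fold higher in siKDM4A (adjusted p = 7.6e-05). CXCL1, CXCL8 and CSF2 thus formed the members that were called with siKDM4A as raised both against Control and against siLEF1.

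Neighbouring genes were called in few cases. Within 100 kb of CXCL2 and CXCL3, the neighbours MTHFD2L (0.840 FPKM on average) and PF4 (0.359 FPKM), a platelet chemokine, were not called in any comparison, and CXCL5 and PPBP were too low to be tested. CXCL2 itself lies 58228 bases from CXCL3. Near IL1A, the mitotic gene CKAP2L, 9238 bases away, rose with siLEF1 by 0.70 on the log2 scale, where IL1A differed by -0.29. NT5DC4, 31036 bases from IL1A and at 0.591 FPKM on average, rose with siLEF1 by 1.03. TOMM7 (40.1 FPKM on average), 80626 bases from IL6, was not called in any comparison. IL3, which lies 10586 bases from CSF2, was too low to be tested.

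The gene whose profile was nearest to a member over the 9 libraries was found by the root mean square difference of log2(FPKM + 0.1), each profile centred on its own Control mean, among 12522 genes. The closest match among those given was that of IL1A with PRKAG1, a subunit of AMP-activated kinase, at a difference of 0.04. IL1B was nearest to ZMIZ1 (0.08), CXCL2 to C11orf24 (0.11), CSF2 to ZNF551 (0.11), IL6 to DDAH2 (0.12), CXCL8 to RPIA (0.13) and CXCL3 to MPDZ (0.13). Among these members, CXCL1 was farthest from its nearest gene, TGFB2, at 0.17. TGFB2, which encodes a growth factor of the TGF-beta family, averaged 2.81 FPKM in Control, 4.24 in siLEF1 and 10.7 FPKM in siKDM4A. No other member was the nearest profile of a member, since members were left out of this search.

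The receptors and antagonists of these ligands were at low to moderate levels. With siLEF1, 1 of 11 tested rose and 1 fell (all genes tested: 6.31% and 5.31%). With siKDM4A, 2 of 10 rose and 5 fell (4.23% and 7.8%), and the median log2 fold change was -0.64, beside -0.05 over all genes tested. IL1RL2, the receptor for the IL-36 cytokines, rose in both, from 2.09 ± 0.37 FPKM in Control to 4.32 ± 0.65 in siLEF1 (limma, adjusted p = 0.0026) and 4.88 ± 0.51 FPKM in siKDM4A (adjusted p = 0.00078). IL1RN, the natural antagonist of the IL-1 receptor, was 1.87 ± 0.16 FPKM in Control, 1.79 ± 0.23 in siLEF1 and 0.700 ± 0.20 FPKM in siKDM4A, where it fell by 1.33 on the log2 scale (adjusted p = 0.0037). The decoy receptor IL1R2 also fell with siKDM4A, by 0.95 (adjusted p = 0.0032). The ratio of IL1RN to IL1A plus IL1B was 0.0171 ± 0.0021 in Control, 0.0158 ± 0.0018 in siLEF1 and 0.00897 ± 0.0025 in siKDM4A, so that antagonist transcript was scarce beside its agonists in every group.

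IL6R, the ligand-binding chain for IL-6, rose with siKDM4A from 14.1 ± 0.30 to 23.1 ± 0.16 FPKM (limma, adjusted p = 1.6e-05). Its signalling partner IL6ST fell with siKDM4A from 47.7 ± 1.4 to 26.7 ± 0.87 FPKM, by 0.84 on the log2 scale (adjusted p = 1.7e-05). IL1R1, the signalling receptor for both IL-1 ligands, was 2.21 ± 0.094 FPKM in Control, 3.31 ± 0.097 in siLEF1 and 1.60 ± 0.21 FPKM in siKDM4A, and it was lower in siKDM4A than in siLEF1 by 1.01 on the log2 scale (adjusted p = 0.00047). CXCR2, the shared receptor of the CXCL chemokines, was 0.753 ± 0.21 FPKM in Control, 0.676 ± 0.10 in siLEF1 and 0.236 ± 0.010 FPKM in siKDM4A, on 12 to 50 reads a library, and it fell with siKDM4A by 1.32 on the log2 scale (adjusted p = 0.0079). CCR6, the receptor of CCL20, was listed at 0 in all siLEF1 and siKDM4A libraries and had at most 1 read in Control. CXCR1, which also binds CXCL8, had at most 5 reads in any library. The chemokine receptors CXCR1 and CCR6 were thus close to undetected and CXCR2 was low, while the IL-1 and IL-6 receptors were present.

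Among other chemokines and cytokines, 3 of 24 fell with siLEF1 and 0 rose by limma (all genes tested: 5.31% lowered and 6.31% raised), with 4 higher at an unadjusted p below 0.05 and 0 raised by voom. Among those that fell were IL23A, a subunit of interleukin 23 (log2 change -1.75, adjusted p = 7e-05), and the mucosal chemokine CCL28 (-1.21, adjusted p = 8e-05). With siKDM4A, 8 of 23 fell and 1 rose (all genes tested: 7.8% lowered and 4.23% raised). The gene that rose was CCL2, a monocyte attractant, from 2.49 ± 0.70 to 11.5 ± 2.7 FPKM (adjusted p = 0.00082). IL11, a relative of IL-6, fell with siKDM4A from 3.97 ± 0.050 to 1.27 ± 0.17 FPKM (adjusted p = 9.1e-05), and IL23A fell by 1.48 on the log2 scale (adjusted p = 8.3e-05). Between the knockdowns, LIF was higher (0.69) and IL24 lower (-1.21) in siKDM4A. The median log2 fold change of the list was -0.02 with siLEF1 and -0.32 with siKDM4A, beside -0.01 and -0.05 over all genes tested.

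Of 22 NF-kB and IL-1 signalling genes, 1 was raised and 3 were lowered with siLEF1 (all genes tested: 6.31% and 5.31%), and 2 were raised and 2 lowered with siKDM4A (4.23% and 7.8%). The adjusted p alone was below 0.05 for 14 of the 22 with siLEF1 and for 18 with siKDM4A, against 32.5% and 33.1% of all genes tested. The median log2 fold change of the list was -0.20 with siLEF1 and -0.25 with siKDM4A, and that of all genes tested was -0.01 and -0.05. NFKBIB, an inhibitor that holds NF-kB in the cytoplasm, rose in both, by 0.66 with siLEF1 (limma, adjusted p = 9e-05) and by 0.98 with siKDM4A (adjusted p = 1.9e-05). Another inhibitor of the family, NFKBIE, fell by 0.66 (adjusted p = 0.00033) and by 0.64 (adjusted p = 5.6e-05). NFKBIA, also of this family, fell with siLEF1 by 0.60 (adjusted p = 8e-05). With siKDM4A it differed from Control by -0.34 (adjusted p = 0.0064), short of 1.5-fold. IKBKB, a kinase that marks these inhibitors for destruction, fell with siLEF1 by 0.64 (adjusted p = 0.0011). With siKDM4A, IRAK2, a kinase of the IL-1 receptor complex, rose by 0.84 (adjusted p = 0.00066), and the adaptor TAB2 fell by 0.65 (adjusted p = 0.00024). All values are on the log2 scale.

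Further genes known as NF-kB targets were called in both directions, 3 raised and 3 lowered of 16 with siLEF1 (11.6% of all genes tested were called in either direction) and 3 raised and 2 lowered of 16 with siKDM4A (12%). Their median log2 fold change was -0.19 with siLEF1 and -0.09 with siKDM4A. LCN2, an iron-binding antimicrobial protein, was 27.4 ± 2.1 FPKM in Control, 87.6 ± 3.2 in siLEF1 and 79.3 ± 3.9 FPKM in siKDM4A (limma, adjusted p = 7.7e-06 and 1.4e-05). PTX3, a soluble pattern recognition protein, was 3.17 ± 0.42, 5.76 ± 0.69 and 17.2 ± 0.57 FPKM in the same order (adjusted p = 0.0023 and 1.2e-05). CD83 fell in both, by 1.79 and 1.12 on the log2 scale (adjusted p = 2.6e-05 and 0.0001). PTGS2, the inducible cyclooxygenase, was lower in siKDM4A than in siLEF1 by 1.16 (adjusted p = 8.2e-05), and the acute phase gene SAA2 was higher by 1.07 (adjusted p = 9.6e-06). Of the members with an NF-kB motif, IL6 was raised and CXCL3 and CCL20 were lowered with siLEF1. With siKDM4A, CXCL1, CXCL8 and CSF2 were raised, and CXCL2, CXCL3, CCL20 and IL6 were not called. Whether the motif had a part in these responses was not tested.

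Of 8 genes of IL-6 and STAT3 signalling, 1 rose with siLEF1 (all genes tested: 6.31%) and 3 fell with siKDM4A (7.8%). Their median log2 fold change was 0.13 with siLEF1 and -0.15 with siKDM4A. STAT3, the transcription factor that IL-6 activates, rose from 20.2 ± 0.63 to 32.8 ± 0.83 FPKM with siLEF1 (limma, adjusted p = 2.3e-05). With siKDM4A, SOCS1, a feedback inhibitor of cytokine signalling, fell by 0.85 (log2, adjusted p = 0.0077) and the kinase JAK2 by 0.74 (adjusted p = 0.00044).

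Genes that process or release cytokines gave 1 raised and 0 lowered of 14 with siLEF1 by limma (2 lower at an unadjusted p below 0.05, and 0 lowered by voom), and 1 raised and 3 lowered of 13 with siKDM4A. The shares over all genes tested were 6.31% and 5.31% with siLEF1 and 4.23% and 7.8% with siKDM4A. The adjusted p alone was below 0.05 for 8 of the 14 and for 12 of the 13, against 32.5% and 33.1% of all genes tested. The inflammasome sensor NLRP1 rose with siLEF1 from 1.96 ± 0.12 to 4.09 ± 0.17 FPKM (adjusted p = 0.00014). PYCARD, the adaptor of the inflammasome that activates the IL-1 beta precursor, fell with siKDM4A by 1.21 on the log2 scale (adjusted p = 0.016), as did GSDME, a pore-forming protein, by 0.71 (adjusted p = 0.0001). Among 11 genes that act in the decay of cytokine mRNA, 1 was called with siLEF1 and 1 with siKDM4A (all genes tested: 11.6% and 12%). The adjusted p alone was below 0.05 for 8 and for 6 of the 11 (32.5% and 33.1%). At an unadjusted p below 0.05, 3 were higher and 6 lower with siLEF1, and 2 higher and 7 lower with siKDM4A. ZFP36L1 was raised with siLEF1 by 0.67 on the log2 scale (adjusted p = 9.5e-06). With siKDM4A it differed from Control by 0.44 (adjusted p = 6.6e-05), short of 1.5-fold, and ZFP36 was called. ZFP36 encodes tristetraprolin, which binds AU-rich elements in cytokine mRNAs, and was 27.7 ± 0.78 FPKM in Control, 23.9 ± 0.77 in siLEF1 and 14.4 ± 1.2 FPKM in siKDM4A (adjusted p = 7.4e-05).

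**Figure D4:**
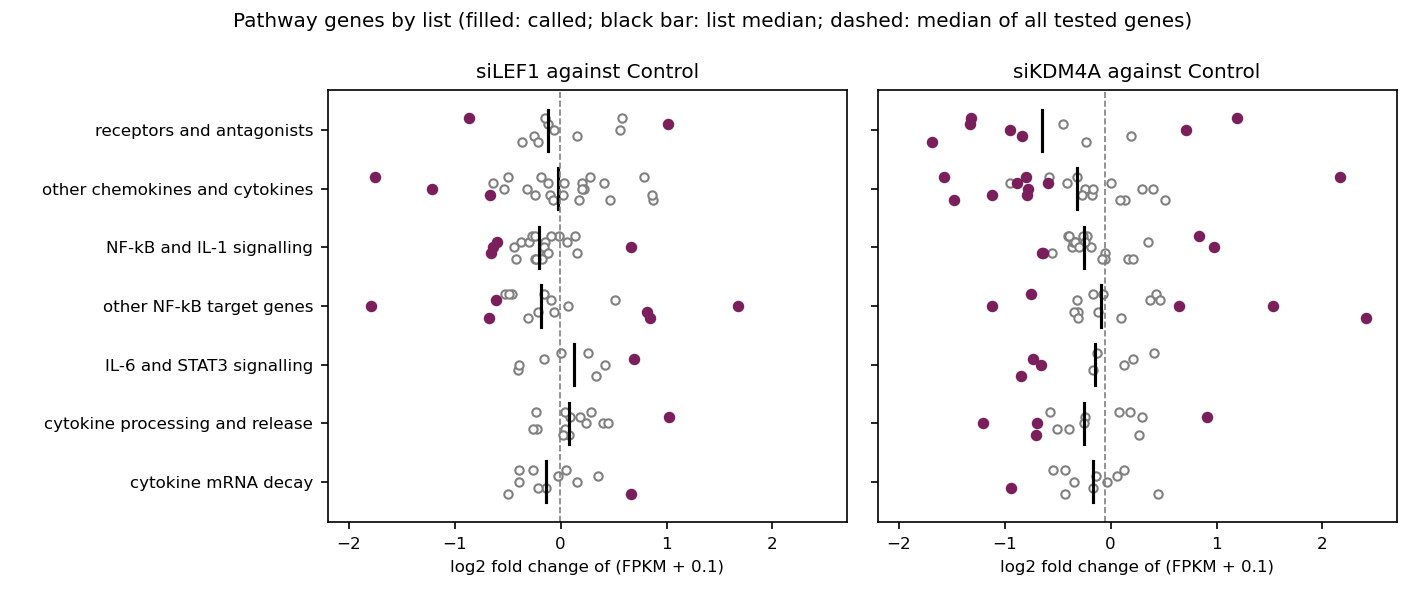
Log2 fold changes of (FPKM + 0.1) (horizontal axis) for the tested genes of 7 pathway lists in siLEF1 against Control (left) and siKDM4A against Control (right); filled points are called genes, black bars are list medians and the dashed line is the median of all genes tested. List medians ranged from -0.20 to 0.13 with siLEF1, and the lowest median with siKDM4A was -0.64, for the receptors and antagonists.

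Markers of other cell types were low throughout. The 8 leukocyte markers in the files summed to 5.50 to 7.35 FPKM in Control, 7.19 to 7.82 in siLEF1 and 3.29 to 3.796 FPKM in siKDM4A. PTPRC, which defines leukocytes, was listed at 0 in all Control and siKDM4A libraries and had at most 2 reads in siLEF1. Of the 4 tested, 1 was called with siLEF1 and 3 with siKDM4A (all genes tested: 11.6% and 12%). CSF1R rose with siLEF1 by 0.88 and fell by 0.71 with siKDM4A on the log2 scale (limma, adjusted p = 0.00071 and 0.0034). CD14 and ITGAM also fell with siKDM4A, by 0.80 and 0.88 (adjusted p = 0.021 and 0.022). With siLEF1 they differed from Control by -0.45 and -0.24 and were not called. The 5 fibroblast markers summed to 2.78 to 3.10 FPKM in Control, 3.67 to 4.40 in siLEF1 and 2.71 to 3.06 FPKM in siKDM4A, and DCN was listed at 0 in all Control and siKDM4A libraries. COL1A2 rose with siLEF1 from 0.170 ± 0.033 to 0.744 ± 0.094 FPKM (adjusted p = 0.0024). The 5 endothelial markers summed to 0.694 to 1.28 FPKM in Control, 2.02 to 2.42 in siLEF1 and 2.46 to 2.87 FPKM in siKDM4A, and CDH5 rose in both, 2.39-fold and 2.95-fold (adjusted p = 0.0055 and 0.0017). The 8 epithelial markers were KRT5, KRT8, KRT17, KRT18, EPCAM, CDH1, TP63 and SFN. They summed to 1519 to 1542 FPKM in Control, 1550 to 1576 in siLEF1 and 964 to 975 FPKM in siKDM4A. SFN alone was 658 ± 6.4 FPKM in Control and 240 ± 6.5 FPKM in siKDM4A. With siLEF1, 0 of the 8 were called by limma (11.6% of all genes tested were called) and 0 by voom. Of the 8, 6 had an unadjusted and an adjusted p below 0.05 with smaller folds. With siKDM4A, 4 of the 8 fell and 1 rose (all genes tested: 7.8% lowered and 4.23% raised). KRT5 fell by 3.19 and KRT17 fell by 2.09 on the log2 scale (adjusted p = 9.5e-07 and 5.4e-07). TP63 and SFN also fell, by 1.40 and by 1.46 (adjusted p = 4.9e-06 and 9.5e-07). EPCAM rose with siKDM4A by 0.60 (adjusted p = 2.4e-05), and KRT18 (0.50), KRT8 (0.42) and CDH1 (0.13) differed from Control by less than 1.5-fold with an adjusted p below 0.05. These marker lists thus differed between the groups in which members were called, and their part in the members' results was not tested. In bulk samples, fewer cells of a type and less RNA per cell cannot be told apart.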

How the data were processed

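Poly(A)-selected RNA of 9 CAL-27 libraries was sequenced on an Illumina instrument by Xiuyue Biol, as the paper states, with a stranded mRNA kit per the labels. For each library, a gene table in FPKM was deposited. The submitters' processing notes name Trimmomatic, HISAT2, Cufflinks, HTSeq and hg38, without versions or settings. Low FPKM values were multiples of the worth of 1 read, which gave back the reads (99.999% of nonzero values came out whole within 0.02 reads). For 95% of genes the length behind the FPKM was the GENCODE release 29 exon length. For the others, CCL20 among them, a length that made the reads whole was searched for. Whole values are therefore no check of the reads of those genes.

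From the deposited FPKM, log2(FPKM + 0.1) was compared in R 4.3.3 with limma 3.58.1 (lmFit, and eBayes with a trend), two-sided, without covariates, keeping genes that averaged 0.1 FPKM or more over the 6 libraries. Thresholds were an adjusted p (Benjamini-Hochberg) of 0.05 and a fold change of 1.5, those of the study's methods. With limma on simulated libraries of siLEF1 and Control, 90.5% of 200 changed genes among 21663 were recovered, and 13.8% of the calls were false. The fit with voom recovered 99.5%, with 1.97% false. The changes put into the simulation were all larger than 1.5-fold, lay in genes with ample reads and touched few genes. These shares therefore do not give the error rates of the calls in the real data, least of all near 1.5-fold or for low genes.

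Alternatives were other pseudocounts (1 and 0.01), no filter, a filter of 1 FPKM, eBayes with no trend, a joint fit of the 9 libraries, libraries scaled to a common median ratio, a replicate block, a fold change above 2, limma's treat, voom on the recovered reads, and leaving out each library in turn. No replicate library was a copy of another, since their reads varied beyond counting noise. The members and lists were chosen with earlier results of these data known. The text names the 10 members, both targets and, from each list, up to 2 rises and 2 falls called at a mean of 1 FPKM or more, and for members above that level the nearest profile, of which 1 is not reported here. CXCR1, CXCR2, CCR6, IL6ST, NFKBIA, PTPRC, ITGAM, DCN, COL1A2, TP63, SFN, KRT8, KRT18, CDH1 and the neighbouring genes were named outside this rule. Their values had been seen by then. Genes of the lists that the tables do not hold were not analysed here. Promoter sequences come from RefSeq (GRCh38.p14), with an entry for each of the 10 members, and were searched with Python 3.11.15. Figures were drawn with matplotlib 3.10.9.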

Additional observations from a re-analysis of the deposited data

How the results depend on the processing

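Of 507 fold changes of single members under alternatives, 487 kept their direction and their side of the threshold. With siLEF1, 3 members were called, 1 with a fold change above 2 and 1 with limma's treat against 1.5-fold, and 2 to 3 when 1 library was left out. With siKDM4A, 4 members were called, and 4 to 5 without 1 library. Between the knockdowns 5 were called, and 5 to 6 without 1 library. IL6 with siLEF1 and CXCL1, CXCL8 and CSF2 with siKDM4A were called under every alternative listed. CXCL3 with siLEF1 was also lost with a pseudocount of 1 (-0.42) and with scaled libraries (-0.58), and CCL20 with siLEF1 and IL1B with siKDM4A were lost with a fold change above 2 and with treat. IL6 between the knockdowns (-0.86) was lost with a fold change above 2. IL36G, on few reads, was called lower in siKDM4A than in siLEF1 with voom (-1.94) and without siKDM4A replicate 3 (-2.04). The difference of CSF2 with siLEF1, close to 0, changed sign with scaled libraries (0.001), without Control replicate 1 (0.05) and without siLEF1 replicate 3 (0.09), and spanned -0.066 to 0.09 when 1 library was left out. The cause of these changes was not tested.

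Over all genes, calls with siLEF1, with siKDM4A and between the knockdowns numbered 2538, 2556 and 3289. They were 1405, 1462 and 1841 with a pseudocount of 1, 1070, 1079 and 1493 with a fold change above 2, and 566, 586 and 925 with treat. Deviations from the group means correlated by -0.04 to 0.04 between libraries of the same replicate number and by -0.08 to 0.07 between others. No deviation shared by replicate number was thus seen. The labels do not say whether the samples were prepared in matched sets, and such correlations cannot settle it. With the replicate number as a block, 3, 4 and 5 members were called, as without it, and 2245, 2305 and 2953 of all genes. Depth limits IL36G, CXCL3 and the low receptors.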
